A study of Homo sapiens with 6 samples.

Results

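RNA sequencing compared a CAL27 line carrying GFP-fused MB21D2 with the Q311E substitution against a CAL27 line carrying the empty vector. CAL27 is an established oral carcinoma cell line, which the labels describe as adenosquamous. Per the labels both are stable lines, kept in DMEM with serum and the selection drug G418, so the vector control had the same drug. The 4 libraries (A and B of each line) were taken from the 6 of the series, and the wild-type MB21D2 libraries stayed out of the fit. Of the 30178 gene IDs measured, the 11705 with a mean of at least 1 FPKM over these 4 libraries were tested. FPKM scales reads by gene length and by the reads of the library, and these library totals lay between 20645410 and 24147306 reads. Neither separate cultures for A and B nor the number of clones in a line is given by the labels. The p-values therefore rest on the spread of these libraries, which could be technical.

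MB21D2 belongs to the Mab-21 family of proteins, whose best-known member is the cytosolic DNA sensor cGAS. Q311E exchanges a glutamine of MB21D2 for a glutamate. CAL27 cells are of squamous origin, and basal squamous cells are known for pairing keratins 5 and 14 into filaments that anchor at hemidesmosomes. All 8 squamous epithelium markers were present, with a summed level of 1311 to 1333 FPKM in the vector line and 1187 to 1235 in the Q311E line. KRT14 is not among these 8. KRT5 made up the largest share of the sum, KRT6A was called lower, and 3 of the 8 lay below the vector without overlap against 2 above. Of 5 leukocyte markers in the table, PTPRC was at 0 in all 4 libraries. The summed leukocyte level of 2.03 and 3.57 in the vector libraries and 5.53 and 19.2 in the Q311E libraries came almost wholly from CD14. The endothelial sum of 20.1 and 21.5 against 22.8 and 35.6 FPKM came almost wholly from CDH5, the summed fibroblast markers stayed between 3.01 and 3.86 FPKM, and the melanocyte and neural markers stayed below 0.465.

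The substituted codon is shown here because it defines the line. In the GENCODE 29 reference transcript of MB21D2 it lies in exon 2 of 2, within the coding sequence, at GRCh38 chr3:192798929-192798931 on the minus strand. The reference bases from chr3:192798899-192798961 follow, with the substituted codon (CAG, glutamine) in capitals. They are reference sequence, not a read of the introduced gene.
MB21D2: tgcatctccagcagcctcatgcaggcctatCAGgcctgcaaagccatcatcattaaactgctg

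MB21D2 (ENSG00000180611, GRCh38 chromosome 3, 192796815 to 192918161) read 8.31 and 7.15 FPKM in vector A and B, and 32.8 and 21.2 FPKM in Q311E A and B. Both Q311E libraries lay above both vector libraries. The log2 fold change was 1.65 ± 0.23 (SE) on the log2(FPKM + 1) scale, with a Benjamini-Hochberg adjusted p of 0.0507 in limma, which just missed the threshold of 0.05. FPKM does not separate introduced from endogenous MB21D2, nor the Q311E form from the wild type. None of the 8 tested Mab-21 genes passed in limma, 2 were under an unadjusted p of 0.05, and limma-voom on recovered reads called 1. Of all 11705 tested genes, 3053 were under an unadjusted p of 0.05 in limma. CGAS, the DNA sensor of the family, read 17.9 and 16.2 against 20.8 and 14.8 FPKM, overlapping between the lines. MAB21L4, a further member of the family, read 1.09 and 0.891 in the vector libraries and 5.58 and 12.6 FPKM in the Q311E libraries, also short of the threshold (adjusted p = 0.0589).

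In the Q311E line 150 genes rose and 125 fell, 1.28% and 1.07% of the genes tested, or 2.35% together. The changes covered keratins, matrix enzymes, mucins and a chemokine, and included a keratin lost almost completely. Of the 275 called genes, 114 rose and 80 fell at least 2-fold, and 240 were protein-coding. In each of them the 4 values did not overlap between the lines, which by itself was common, since 60.3% of all tested genes did not overlap. The median log2 fold change of all tested genes was 0.0043. The count of calls rested on single libraries: the same fit without vector A, or without vector B, called 1 gene higher (CXCL14) and 1 lower (KRT14). Without either, then, no list below that lacks these genes kept a call. Without Q311E A it called 2165 higher and 2255 lower, and without Q311E B 1403 and 1429. With 1 line per group, an effect of Q311E and a difference between the lines from other sources cannot be told apart.

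KRT14 (ENSG00000186847, GRCh38 chromosome 17, 41582279 to 41586921), the basal type I keratin, had the largest change of all called genes on the log2(FPKM + 1) scale. Its levels were 762 and 697 FPKM in the vector libraries and 0.771 and 0.902 FPKM in the Q311E libraries, from 41495 and 32438 reads against 37 and 44. Both Q311E libraries were close to no signal (log2 fold change -8.63 ± 0.11, adjusted p = 0.0003). In such bulk libraries fewer cells with the RNA and less RNA per cell cannot be told apart. Its usual partner KRT5 read 522 and 537 against 473 and 579 FPKM, which overlapped. KRT6A, a stress keratin, fell from 109 and 104 to 16.7 and 14.97 FPKM. Its near copy KRT6B read 4.57 and 7.95 against 5.49 and 6.59 FPKM, and reads of such copies may have been split in counting. KRT17, a further stress keratin, read 75.1 and 79.3 against 118 and 123 FPKM without passing the test. Of the 7 tested basal and stress keratins, 2 fell and none rose, beside 1.07% and 1.28% of all tested genes. KRT86, a keratin outside the keratin lists, was called higher (log2 fold change 0.89).

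CXCL14 (ENSG00000145824, GRCh38 chromosome 5, 135570679 to 135579279), a chemokine made by epithelia, had the largest rise on the log2(FPKM + 1) scale. It read 0.377 and 0.441 FPKM in the vector libraries, from 18 reads each, and 34.7 and 38.4 FPKM in the Q311E libraries, from 1459 and 1640 reads. The log2 fold change was 4.73 ± 0.11 (adjusted p = 0.00271), and neither group's libraries were far apart. LOXL4 (ENSG00000138131, GRCh38 chromosome 10, 98247690 to 98268250), a lysyl oxidase that cross-links collagen and elastin, read 1.60 and 2.48 against 38.4 and 67.7 FPKM. Both Q311E values stood far above both vector values. MUC6 (ENSG00000184956, GRCh38 chromosome 11, 1012821 to 1036706), a gel-forming mucin of glandular epithelium, had 2 and 9 reads in the vector libraries and 959 and 2221 in the Q311E libraries, or 5.34 and 12.2 FPKM. It was close to absent from the vector line, and as a ratio of mean FPKM its rise was 285-fold against 89.3-fold for CXCL14.

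Further large rises belonged to genes of varied function. PADI2, which converts arginine to citrulline in proteins, read 2.30 and 3.57 against 18.9 and 37.4 FPKM. L1CAM, a neural cell adhesion molecule, read 0.587 and 0.546 against 14.4 and 6.59 FPKM. The L1CAM values of the Q311E libraries differed over 2-fold but both stood far above the vector. IRX4, an Iroquois homeobox transcription factor, went from 1 and 8 reads to 262 and 348, or 4.14 and 5.41 FPKM. HSPA6, a strongly stress-inducible heat shock protein, read 0.528 and 0.843 against 11.2 and 7.84 FPKM. GNE, which starts sialic acid synthesis, read 4.27 and 4.37 against 29.8 and 16.6 FPKM. SUSD2, a membrane protein with a sushi domain, read 1.40 and 1.41 against 11.5 and 8.09 FPKM, and KRTAP2-3, a keratin-associated protein gene, 0.473 and 0.332 against 5.42 and 5.87. The mitochondrial asparagine tRNA gene MT-TN read 44.2 and 78.3 against 430.0 and 823 FPKM. Most of its family lay lower. Of 14 tested mitochondrial tRNA genes 1 was called higher and 2 lower, beside 1.28% and 1.07% of all tested genes. Their median was -1.18, and without overlap 2 lay above the vector and 8 below, beside 30.6% and 29.7% of all genes. FPKM of genes as short as a tRNA is sensitive to library preparation. The other members of the 15 largest rises were CLIC3, ENTPD8 and a noncoding gene, all on the far part of chromosome 9 described below, and H2BC21, described with the histones.

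Large falls included genes that the Q311E libraries lacked almost entirely. TMPRSS15, the intestinal protease that activates trypsinogen, had 481 and 365 reads in the vector libraries and none in either Q311E library. HORMAD2, a protein of meiotic chromosome axes, went from 763 and 670 reads to 0 and 1. Both genes passed the filter on the mean of the 4 libraries only through their vector values. These were 4.57 and 4.05 FPKM (TMPRSS15) and 12.3 and 12.6 FPKM (HORMAD2). In KRT14, FKBP10, GSTM3, PI3 and DEFB4B, too, the filter was met only through the vector values, with a Q311E mean under 1 FPKM. In other called genes it was met only through the Q311E values, with a vector mean under 1 FPKM. These included CXCL14, MUC6, MUC16, IRX4, L1CAM, HSPA6, KRTAP2-3, CLIC3, ENTPD8, H2BC21 and KLK10. FKBP10, an endoplasmic reticulum prolyl isomerase that folds collagen, read 8.22 and 7.84 against 0.550 and 0.498 FPKM. BASP1, a membrane-bound protein of growth cones, read 117 and 122 against 17.7 and 26.1 FPKM. NDRG2, a gene of the N-myc downstream regulated family, read 69.8 and 73.5 against 15.001 and 23.9 FPKM. FABP5, the epidermal fatty acid binding protein, read 33.6 and 32.2 against 9.95 and 7.12 FPKM. GSTM3, a glutathione transferase, read 5.74 and 5.85 against 0.772 and 1.01 FPKM. The epithelial elastase inhibitor PI3 had only 48 and 30 reads against 1 and 2, and the defensin gene DEFB4B 45 and 43 against 0 and 3. BCYRN1 and RN7SL3, which come from repeat-like small RNA families, also fell, and reads of DEFB4B and of these RNAs can map to near-identical copies.

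**Figure D1:**
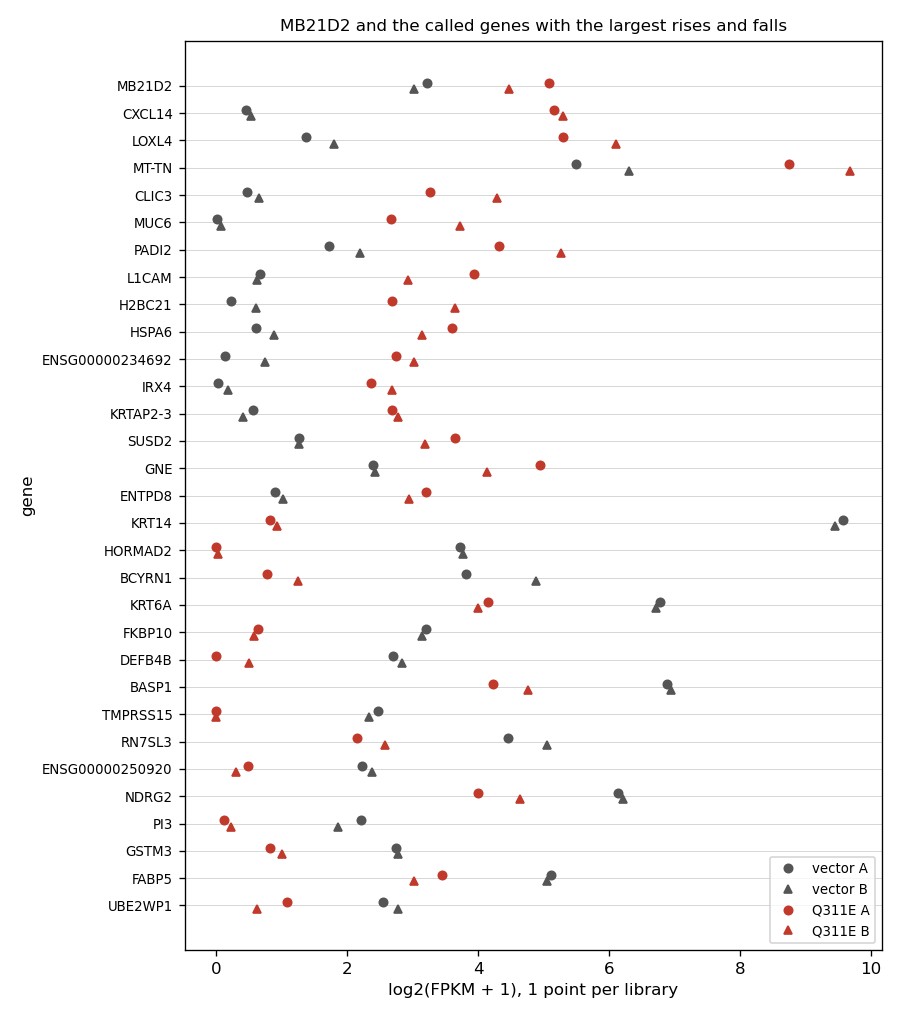
Level in each library of MB21D2 (not called) and of the genes with the largest called changes, on the log2(FPKM + 1) axis, 1 point per library and no error bars because each group has 2 libraries. For every gene drawn, the Q311E points lie on 1 side of both vector points, and KRT14 spans the widest gap, from 762 and 697 FPKM to under 1 FPKM.

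The spread within the Q311E line was larger than within the vector line. The SD across genes of the A minus B difference was 0.440 for Q311E and 0.196 for the vector, on the log2(FPKM + 1) scale. The 2 libraries were over 2-fold apart in 405 genes for Q311E and in 52 for the vector. S100A8, a calcium-binding alarmin subunit, read 151 and 262 FPKM in the vector libraries, 10.7 in Q311E A and 171 in Q311E B. Its partner S100A9 read 1434 and 2154 against 287 and 2671 FPKM. In both, Q311E A lay far below the other 3 libraries, and neither gene passed the test (adjusted p = 0.357 and 0.596). ID1, an inhibitor of basic helix-loop-helix factors, was likewise lowest in Q311E A, with 41.4 and 47.8 against 5.37 and 59.0 FPKM. INHBB, an activin subunit, ran the other way within the Q311E line, with 0.723 and 0.650 FPKM in the vector libraries, 16.1 in Q311E A and 3.42 in Q311E B. A total of 316 genes had fitted differences of at least 2-fold without being called, and 302 of them did not overlap between the lines.

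**Figure D2:**
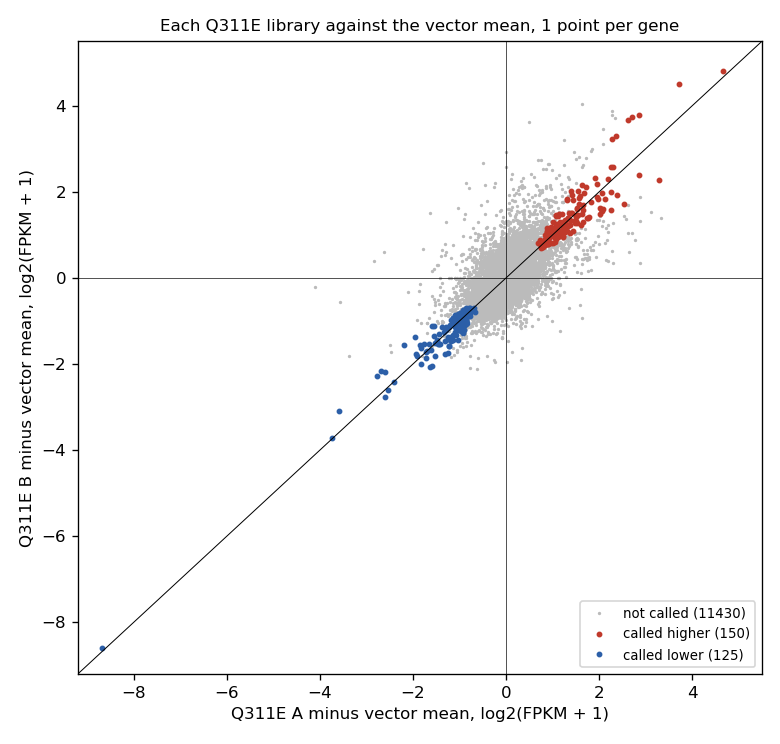
Difference of Q311E B from the vector mean (vertical) against that of Q311E A (horizontal), both in log2(FPKM + 1), with 1 point per tested gene and the called genes marked. All 275 called genes lie on the same side of 0 in both Q311E libraries, and the wide cloud off the diagonal holds genes such as S100A8 in which the 2 libraries part.

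Several genes of cholesterol synthesis and uptake rose. Cells make cholesterol from acetyl-CoA through mevalonate and squalene, and SREBF2 encodes the factor that switches these genes on when sterols run low. Of 29 tested members, 6 rose and none fell, against 1.28% and 1.07% of all tested genes. The list's median log2 fold change was 0.74, against 0.0043 for all genes, and the medians of the Q311E libraries taken singly were 0.78 and 0.73. The 4 values did not overlap in 24 members above and 4 below the vector, against 30.6% and 29.7% of all genes. With Q311E A or Q311E B left out, 22 members were called higher and 1 lower, where 18.5% and 11.99% of all genes were called higher. Without vector A or vector B none was called.

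Among the enzymes, MSMO1, which removes methyl groups from sterol intermediates, read 18.7 and 22.1 against 59.3 and 57.5 FPKM (log2 fold change 1.48 ± 0.12, adjusted p = 0.0321). LSS, which closes the sterol rings, read 28.1 and 31.1 against 62.3 and 61.7 FPKM. DHCR7, which completes cholesterol, read 64.1 and 67.8 against 114 and 118 FPKM. All 3 enzymes had closely matching Q311E libraries. MVD, a mevalonate pathway decarboxylase, read 15.5 and 17.0 against 33.7 and 29.02 FPKM, and the sterol reductase TM7SF2 2.70 and 3.27 against 9.53 and 15.02. In both of these genes, too, the libraries of the lines did not overlap. SREBF1, the fatty acid counterpart of SREBF2, read 49.4 and 65.3 against 36.9 and 49.0 FPKM, which did not overlap and did not pass. In the fatty acid list only ACSS2, which makes acetyl-CoA from acetate, rose among 18 tested, from 5.77 and 6.57 to 16.3 and 17.4 FPKM. None of the 18 fell, and of all tested genes 1.28% rose and 1.07% fell.

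Several genes of the ATF4 response fell. ATF4 is the transcription factor that cells translate when amino acids are short, and its targets import and synthesise amino acids and charge tRNAs. Of 28 tested members, 5 fell and none rose, the median log2 fold change was -0.50, and 22 lay below without overlap and 3 above. Of all tested genes 1.07% were called lower, 29.7% lay below without overlap and 30.6% above. Without Q311E A 22 members were called lower, where 19.3% of all genes were, and without Q311E B 18, where 12.2% of all genes were, with 1 member higher each time. Without vector A or vector B none was called. SLC3A2, the heavy chain of amino acid transporters, read 138 and 131 against 73.2 and 68.8 FPKM (-0.91 ± 0.11, adjusted p = 0.0411). PHGDH, the entry enzyme of serine synthesis, read 16.7 and 16.5 against 8.45 and 8.89 FPKM, and PYCR1, which makes proline, 17.6 and 16.9 against 9.07 and 7.84. CHAC1, which degrades glutathione, read 5.88 and 5.60 against 1.88 and 1.24 FPKM. In all 4 both Q311E libraries lay below both vector libraries. TRIB3, a pseudokinase that restrains ATF4, read 52.1 and 44.8 against 19.9 and 13.6 FPKM, but it lies in a stretch of chromosome 20 whose genes were lower together, with a median of -0.54 over its neighbours within 5 Mb. ATF4 itself read 178 and 186 against 144 and 133 FPKM (adjusted p = 0.134). ATF3, a stress factor on the same list, read 5.03 and 6.28 against 11.9 and 15.5 FPKM, opposite to most of the list (adjusted p = 0.056).

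**Figure D3:**
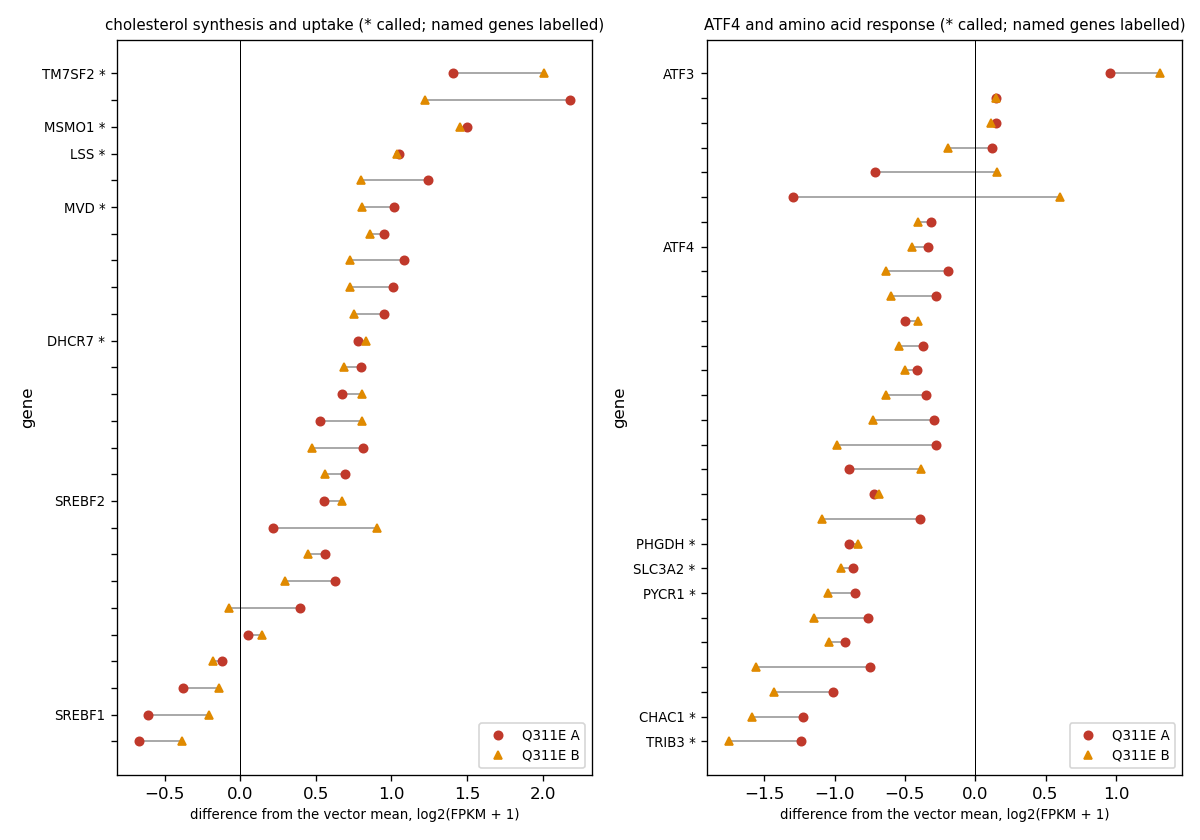
Difference of each Q311E library from the vector mean in log2(FPKM + 1), for tested members of the cholesterol list and the ATF4 list, with 1 point per library, called genes starred and the genes named in the text labelled. Members not reported here are not drawn. The cholesterol members lie mostly above 0 (list median 0.74) and the ATF4 members mostly below (list median -0.50), in both Q311E libraries.

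Interferon-stimulated genes stood above the vector in nearly all cases, but unevenly between the Q311E libraries. Interferons act through STAT2 and related factors, which switch on antiviral effectors. Of 40 tested members 2 rose, none fell, and 37 lay above the vector without overlap, with a median log2 fold change of 1.09, where 1.28% of all tested genes rose and 30.6% lay above without overlap. Without Q311E A 30 members were called, all higher, where 18.5% of all genes were called higher. Without Q311E B the count was 37, where 11.99% of all genes were called higher, and without vector A or vector B it was 0. Taken singly, Q311E A had a median of 1.51 and Q311E B of 0.55. TRIM22, an antiviral ubiquitin ligase, read 4.60 and 5.05 against 14.1 and 12.6 FPKM, and UBA7, which activates the ubiquitin-like ISG15, 4.20 and 5.24 against 13.1 and 12.3. Both called genes were alike in the 2 Q311E libraries. IFI6, a mitochondrial antiviral protein, read 29.5 and 30.1 FPKM in the vector libraries, 267 in Q311E A and 87.9 in Q311E B, and missed the threshold (adjusted p = 0.091). MX1, a dynamin-like antiviral GTPase, read 8.19 and 8.42 against 43.8 and 13.3 FPKM, and ISG15 96.3 and 103 against 314 and 125. In these 3 the Q311E A value was over 2-fold the Q311E B value.

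Among the signalling genes, STAT2 rose from 9.53 and 10.7 to 26.9 and 28.3 FPKM (1.37 ± 0.11, adjusted p = 0.0319). It was the only call among 16 tested receptors and factors, where 2.35% of all tested genes were called. None of the 12 tested DNA and RNA sensing genes passed in limma or in limma-voom. Of the 12, 3 were under an unadjusted p of 0.05 in limma, all higher, beside 3053 of all 11705 tested genes in either direction. In class I antigen presentation 2 of 19 rose and none fell, beside 1.28% and 1.07% of all tested genes, with a median of 0.55. Within this list the 7 peptide loading genes had a median of 0.59 in Q311E A and 0.065 in Q311E B, while the 6 class I chains had 0.62 and 0.64. HLA-B, a classical class I chain, read 133 and 139.5 against 297 and 265 FPKM, and the nonclassical HLA-F 4.11 and 4.83 against 14.5 and 13.6. Reads of HLA genes can be split among near copies, and the tested genes within 5 Mb of HLA-B and HLA-F had medians of 0.13 and 0.14. The interferon-inducible chemokine CXCL10 rose from 3.03 and 2.60 to 14.5 and 9.72 FPKM.

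**Figure D4:**
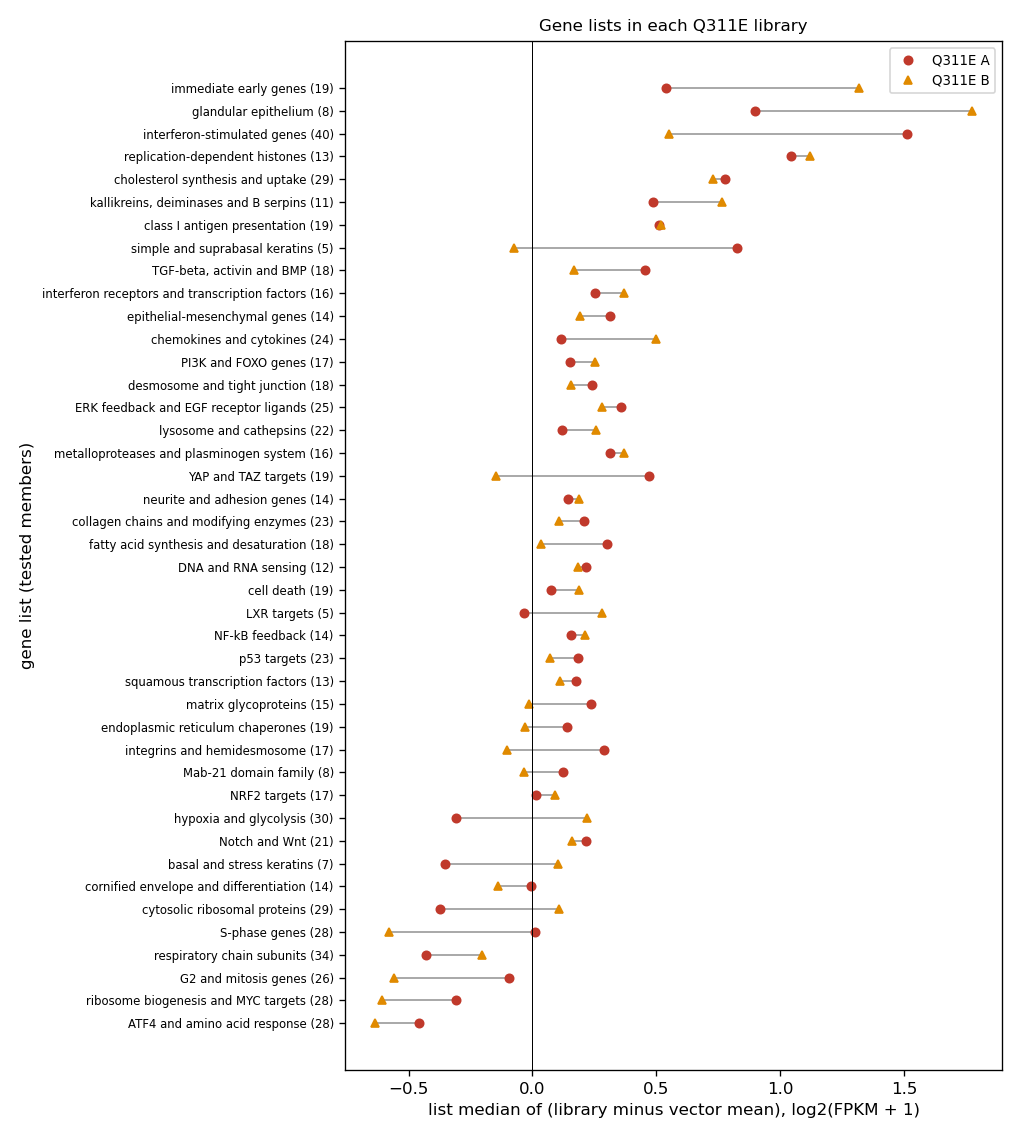
Median over the tested members of each list of the difference from the vector mean, in log2(FPKM + 1), with circles for Q311E A, triangles for Q311E B and the number of tested members in brackets. The cholesterol (0.78 and 0.73) and class I (0.51 and 0.52) lists have matching medians, whereas the interferon-stimulated list (1.51 and 0.55) and the S-phase list (0.01 and -0.58) do not.

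Replication-dependent histone genes normally give RNAs without a poly(A) tail during DNA synthesis. Of 13 tested, 3 rose and none fell, beside 1.28% and 1.07% of all tested genes. Their median was 1.05, and 11 lay above the vector without overlap and 2 below, beside 30.6% and 29.7% of all genes. H2BC12 read 25.0 and 23.4 against 105 and 98.4 FPKM (2.03 ± 0.10, adjusted p = 0.0295). H2BC11 read 1.26 and 1.53 against 4.01 and 3.89 FPKM, and H2BC21 0.170 and 0.530 against 5.44 and 11.6. All 3 encode histone H2B, whose gene copies are alike enough to share reads. The tested genes within 5 Mb of H2BC11 and H2BC12 on chromosome 6 had a median of 0.21. None of the 28 tested S-phase genes or the 26 tested mitosis genes passed in limma or limma-voom, with medians of -0.27 and -0.37. Both medians were lower in Q311E B, with 0.01 in Q311E A against -0.58 in Q311E B for S-phase and -0.10 against -0.56 for mitosis. In each list 5 were under an unadjusted p of 0.05, all lower.

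Promoter bases of the 3 called H2B genes and of ISG15 and IFI6 are printed as examples of the motif matches counted below, and were chosen for carrying them. They come from RefSeq (GRCh38.p14) and cover the 120 bases before each start, read 5′ to 3′ on the gene's strand. ISG15 and IFI6 were not called. Of the called interferon, class I and chemokine genes named above, STAT2 and HLA-B had no match of the interferon core in the searched window. HLA-F and CXCL10 had 1 each outside the 120 bases. No promoter of TRIM22, UBA7 or CXCL14 was used here. The printed promoters were picked after motif matches were seen, from a search of 13 motifs on both strands within 250 bases before the start in 6 lists. In the H2B genes capitals mark CCAAT or its reverse complement and TTTGCAT, the core of the octamer motif.
H2BC12: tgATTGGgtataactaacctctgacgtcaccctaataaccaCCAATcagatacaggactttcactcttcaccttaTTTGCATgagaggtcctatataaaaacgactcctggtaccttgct
H2BC11: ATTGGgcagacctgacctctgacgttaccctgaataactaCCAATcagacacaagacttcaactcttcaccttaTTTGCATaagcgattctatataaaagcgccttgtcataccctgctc
H2BC21: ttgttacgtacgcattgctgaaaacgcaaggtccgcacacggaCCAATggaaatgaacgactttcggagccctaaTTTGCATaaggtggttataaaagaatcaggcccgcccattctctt
In ISG15 and IFI6 capitals mark the core of the interferon-stimulated response element (GAAA, any 2 bases, GAAA), with overlapping matches run together.
ISG15: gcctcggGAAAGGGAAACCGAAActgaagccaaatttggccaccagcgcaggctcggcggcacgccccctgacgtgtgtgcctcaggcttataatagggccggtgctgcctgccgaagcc
IFI6: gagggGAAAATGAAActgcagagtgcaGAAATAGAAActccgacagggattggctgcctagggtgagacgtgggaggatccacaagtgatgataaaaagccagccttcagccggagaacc

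These stretches lie at chr6:27146859-27146978 (H2BC12), chr6:27132796-27132915 (H2BC11) and chr1:149886683-149886802 (H2BC21), all on the minus strand, chr1:1013377-1013496 (ISG15, plus strand) and chr1:27672193-27672312 (IFI6, minus strand). This interferon core was found in 19 of 32 interferon-stimulated promoters and 7 of 15 class I promoters, against 3.07% of 27305 RefSeq promoters. TTTGCAT was found in 11 of 18 histone promoters against 3.98% of all. CCAAT was found in 16 of 18 histone and 17 of 23 cholesterol promoters against 33% of all. It was also in 14 of 25 ATF4 list, 8 of 15 class I, 13 of 32 interferon-stimulated and 6 of 15 immediate early promoters. The sterol element core TCACNCCAC was in 1 of 23 cholesterol promoters against 0.875% of all. TGATGNAAT, a form of the ATF4 element, was in 0 of 25 ATF4 list promoters against 0.916%. Forms with another last base were not searched, so the 0 does not cover them. The stricter forms TGATGCAAT, TCACCCCAC and the latter with an A before it were in 0 of 25, 1 of 23 and 1 of 23 of those same lists, against 0.245%, 0.348% and 0.0366% of all. In the immediate early list of 15 promoters, TGANTCA was in 0 against 6.6% of all, and CACGTG, TGACGTCA and a consensus serum response element in 1 each against 6.49%, 1.77% and 0.033%. The loose frame of that element (CC and GG with any 6 bases between) was in all 15 and in 73.2% of all promoters. These matches describe letters in the window only, and binding was not measured.

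Squamous and glandular genes changed in part. KLK5, KLK6 and KLK10, serine proteases of the epidermal kallikrein family, rose together with PADI2. These were 4 of 11 tested in their list, where 1.28% of all tested genes rose. The 3 tested serpins of that list had a median of -0.43, and 2 of them lay below the vector without overlap, beside 29.7% of all genes. KLK5 read 36.9 and 39.6 against 134 and 104 FPKM, KLK6 1.15 and 1.64 against 8.73 and 6.41, and KLK10 0.480 and 0.727 against 2.33 and 2.64. None of 14 cornified envelope genes passed in limma, and limma-voom called 1 lower. Of the 14, 6 were under an unadjusted p of 0.05 in limma, beside 3053 of all 11705 tested genes. The Q311E libraries differed most among the S100 genes of that list. Of 8 glandular genes MUC6 and MUC16 rose, and MUC16, a membrane mucin, read 0.853 and 0.822 against 6.16 and 5.74 FPKM. MUC6, MUC16 and KLK10 met the expression filter only through their Q311E values.

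Matrix and adhesion genes held calls in both directions. Beside LOXL4 and FKBP10, the collagen chain genes COL18A1 (20.2 and 20.96 against 36.4 and 34.5 FPKM) and COL27A1 (2.85 and 2.71 against 6.11 and 7.24) rose. So 3 of 23 tested rose and 1 fell, where 1.28% of all tested genes rose and 1.07% fell. TNC, the matrix glycoprotein tenascin C, read 49.7 and 41.5 against 191 and 141 FPKM, and LTBP2, a latent TGF-beta binding protein, 4.48 and 4.29 against 12.5 and 13.2. TGFBI, a matrix protein induced by TGF-beta, fell from 67.3 and 66.0 to 37.4 and 39.0 FPKM. COL27A1 and TNC lie on the far part of chromosome 9. Among 17 integrin and hemidesmosome genes ITGB6, ITGB8 and ITGA2 rose, with ITGB6, the beta chain of an epithelial integrin, at 11.05 and 11.04 against 31.3 and 33.4 FPKM. PLAU, the urokinase protease, rose from 132 and 138 to 302 and 289 FPKM.

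Growth and signalling lists held few calls, where 1.28% of all tested genes rose and 1.07% fell. JUN, an AP-1 subunit, rose from 31.8 and 31.3 to 69.7 and 87.0 FPKM, 1 call among 19 immediate early genes whose median was 1.15, from 0.54 in Q311E A and 1.32 in Q311E B. FOS, its usual partner, read 8.16 and 15.2 against 58.3 and 167 FPKM and did not pass (adjusted p = 0.07). DUSP5, a phosphatase that restrains ERK, rose from 17.2 and 17.6 to 51.4 and 45.4 FPKM, and SPRY2, a further feedback gene, from 3.07 and 3.42 to 7.06 and 7.11. CDKN1A, the p53 target that arrests the cell cycle, rose from 4.25 and 5.34 to 11.4 and 12.8 FPKM, 1 of 23 p53 targets. BCL2L11 and BAD, both death-promoting members of the BCL2 family, parted, with 3.03 and 2.98 against 8.47 and 7.54 FPKM for the first and 52.1 and 55.7 against 25.3 and 27.2 for the second.

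Few calls fell in the other metabolic lists and the ribosome lists. LDHB, a lactate dehydrogenase chain, fell from 24.6 and 26.8 to 7.69 and 7.43 FPKM, while ADM, a hypoxia-inducible peptide hormone, rose from 18.9 and 21.5 to 37.3 and 36.1. In the respiratory chain 1 of 34 fell, NDUFB8 (8.16 and 10.2 against 2.44 and 3.01 FPKM), and 25 lay below without overlap, with a median of -0.28, beside 1.07% and 29.7% of all tested genes. In ribosome biogenesis 1 of 28 fell, BOP1 (56.0 and 51.3 against 28.1 and 22.8 FPKM), and 23 lay below without overlap, with a median of -0.44, beside the same shares of all genes. Cytosolic ribosomal protein genes had no call among 29 in limma or limma-voom (4 were under an unadjusted p of 0.05), with medians of -0.37 in Q311E A and 0.11 in Q311E B. Across the 42 gene lists, 14 had no called member and 215 of the 275 called genes were on no list.

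Called genes were unevenly placed along the chromosomes, among others on 9, 20 and 6. Of 263 tested genes on chromosome 9 from 100 Mb onward, 20 rose and none fell, 92.4% had a fold change above 0, and the median was 0.48. Of 108 tested genes on chromosome 20 before 30 Mb, 14 fell and none rose, 2.78% had a fold change above 0, and the median was -0.55. Both Q311E libraries shared both shifts, with 0.49 and 0.48 on chromosome 9 and -0.50 and -0.56 on chromosome 20. Of the other 11334 tested genes 1.15% rose and 0.979% fell, and their median was 0.00045. Of all tested genes 1.28% rose and 1.07% fell. The stretch edges were set after the positions were seen. Of 217 bins of 10 Mb with at least 20 tested genes, 10 had a median beyond 0.3 either way, 4 of them in the first stretch, 3 in the second and 3 on chromosome 6. On chromosome 6 the bin before 10 Mb had a median of -0.34 with 7 of 36 genes lower and none higher. From 10 to 20 Mb the median was 0.37 with 2 of 37 higher, and from 20 to 30 Mb it was 0.35 with 4 of 58 higher. The last of these bins holds H2BC11, H2BC12 and HLA-F. The chromosome 6 genes are among the other 11334. On chromosome 14 from 20 to 30 Mb, the bin with NDRG2, 6 of 66 genes fell, with a median of -0.18. On chromosome 17 from 80 to 90 Mb 5 of 60 fell, with a median of 0.0017. None rose in either bin. CLIC3 (0.387 and 0.576 against 8.62 and 18.6 FPKM), ENTPD8 (0.862 and 1.02 against 8.22 and 6.74), TNC, COL27A1 and the squamous factor KLF4 (7.74 and 6.56 against 18.5 and 17.2) lie in the first stretch. TRIB3 and SRXN1, an antioxidant enzyme (16.3 and 12.6 against 4.32 and 3.38 FPKM), lie in the second. Copy number was not measured, and whether these shifts come from the introduced gene or from differences between the lines cannot be told apart.

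**Figure D5:**
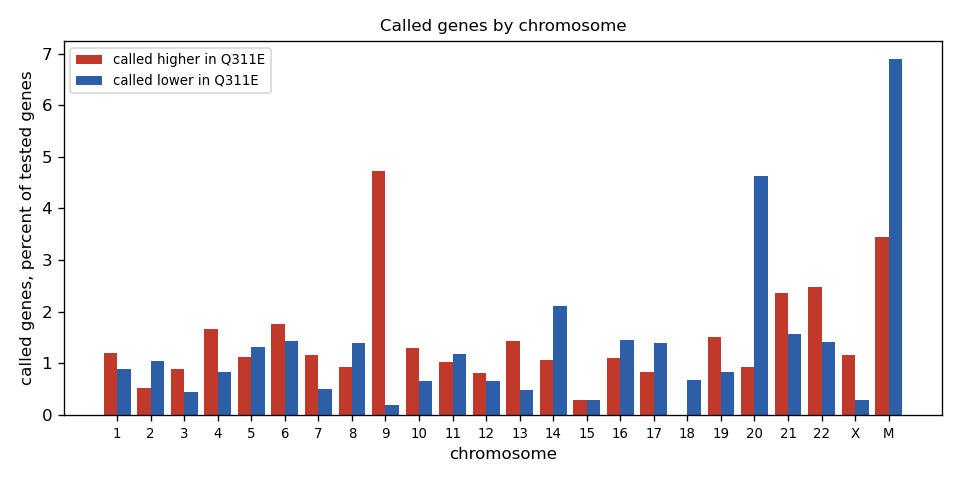
Percent of tested genes called higher and lower on each chromosome, as bars from 0. Chromosome 9 has the highest share called higher (4.73%) and chromosome 20, among the nuclear chromosomes, the highest share called lower (4.63%).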

How the data were processed

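The authors' deposited table held FPKM values per human Ensembl gene. Per the labels' protocols, RNA extraction used QIAGEN material and libraries followed Illumina protocols. The submitters' processing notes name CASAVA and 2 mouse builds (mm8, mm9) without a role. How reads were aligned and counted, and whether by strand, is not given in the sources used here, so overlapping and antisense genes could not be separated. Names matched 29993 of 30178 IDs. Positions came from GENCODE 29 on GRCh38.

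The scale was log2(FPKM + 1), which understates changes of low genes. The 4 libraries were fitted with limma 3.58.1 (R 4.3.3, eBayes with trend), leaving 2 residual degrees of freedom. P-values are two-sided and Benjamini-Hochberg adjusted over 11705 genes. A gene was called at an adjusted p under 0.05. Fold change errors are SEs. FPKM steps gave whole reads (tolerance 0.001) for 99.5% of genes, and 99.87% of those tested. Of the 30026 such genes, 22359 did so at the GENCODE 29 length. For the others the nearest length that gave whole values was searched for and used, so their reads are less certain. The comparison, the 42 gene lists and 5 marker lists were chosen with earlier results of these data known, so no list count is independent evidence. Lists are described by counts and medians only.

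The rule for named genes took MB21D2, the 15 called genes with non-overlapping groups that rose most and the 15 that fell most, and from each list up to 4 members by smallest p and 2 by fold change. Some further genes were chosen after their values were seen. They were named for the spread between Q311E libraries, as reference points beside called genes, as calls outside a list, or in the closing section. Analyses outside R used numpy 2.4.6, pandas 2.3.3 and matplotlib 3.10.9. Some members of the lists are counted but not reported by name here.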

Additional observations from a re-analysis of the deposited data

How the results depend on the processing

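Each group has 2 libraries from 1 line, so single libraries and the variance prior set the calls. All 275 called genes kept their direction in every alternative that tested them. The counts moved by over 1.5 times in these settings: with no filter on low values 1 higher and 1 lower (29096 genes tested), with all 6 libraries in 1 fit 1017 and 1077, with a weight per library 243 and 204, and with median scaling 193 lower. With the letter as a replicate block they were 639 and 534. No label pairs the libraries of a letter across the lines, and the correlation across genes of A minus B between the lines was 0.378. Whether a letter stands for a shared batch was not tested. Leaving out 1 library gave 1 to 2165 higher and 1 to 2255 lower calls. The remaining settings gave 101 to 222 higher and 92 to 158 lower, including an alternative chosen after seeing the data, without the chromosome 9 and 20 stretches (101 and 92). MB21D2 passed the threshold at a log2 fold change of 1.76 with pseudocount 0.1, 1.71 with pseudocount 0.5, 1.65 with a mean FPKM of at least 5, with the replicate block, with all 6 libraries and with a weight per library, 1.67 with TPM scaling, 1.62 with median scaling and 1.77 with limma-voom on recovered reads. It ranged from 1.35 to 1.96 with 1 library left out, and its adjusted p over all alternatives ran from 0.00271 to 0.352. Uncalled genes whose sign turned were KRT5 (0.0042 with TPM scaling) and KRT6B (0.010 with TPM scaling, 0.019 with limma-voom). With 1 library left out CGAS ran from -0.19 to 0.28, ID1 from -2.84 to 0.40, KRT5 from -0.16 to 0.13, KRT6B from -0.35 to 0.33 and S100A9 from -2.61 to 0.60. The cause of these shifts was not tested. An arm left with 1 library is assumed to vary like the other group.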

Other observations

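Gene families outside the lists were looked at after their values were seen, and are given as values. All 4 tested APOBEC3 genes, cytidine deaminases that act on viral DNA, rose, where 1.28% of all tested genes did. APOBEC3G read 8.51 and 9.49 FPKM in the vector libraries and 38.1 and 34.9 in the Q311E libraries, APOBEC3B 2.75 and 2.96 against 15.4 and 10.7, APOBEC3F 3.54 and 3.98 against 11.6 and 12.6, and APOBEC3C 46.0 and 48.0 against 86.8 and 98.1. The Q311E libraries were alike for these neighbouring genes of chromosome 22, which resemble each other in sequence. Their median log2 fold change was 1.65.

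Of 76 tested mitochondrial ribosomal protein genes, 5 fell and none rose, 59 lay below the vector without overlap, and the median was -0.36, beside 1.07% of all tested genes called lower and 29.7% below without overlap. MRPL12 fell from 51.6 and 48.0 to 14.02 and 16.6 FPKM. Of 37 tested proteasome subunit genes none was called in limma, and the median was -0.37. Of the 37, 19 were under an unadjusted p of 0.05 in limma, beside 3053 of all 11705 tested genes. Without overlap 31 lay below, where 29.7% of all genes did. HSPE1, a mitochondrial chaperonin partner, fell from 104 and 106 to 32.7 and 35.4 FPKM, and NME1, a nucleoside diphosphate kinase, from 24.8 and 27.6 to 8.93 and 8.38. RNASE7, an antimicrobial ribonuclease of skin, fell from 49.1 and 47.5 to 19.9 and 17.95 FPKM.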
